A study of Mus musculus with 4 samples.

Results

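The 8 enzymes that convert or inactivate steroid hormones were followed through the cell types of the prostate in a mouse model of prostate cancer: Srd5a1, Srd5a2, Srd5a3, Sult1e1, Hsd17b4, Hsd17b7, Hsd11b1 and Akr1c14. They were taken by gene symbol, as 8 of the 30905 genes of the deposited single-cell RNA count matrices, and all 8 were found. The study profiled dissociated prostate tissue with droplet-based sequencing of the 3' ends of RNA, in 4 libraries with 1 library per group. The groups were a Trp53-intact library with ADT at 5.5 months of age, a Trp53-intact library without ADT at 4 months, a Trp53-deleted library with ADT at 5.5 months, and a Trp53-deleted library without ADT at 3.5 months. ADT is read here as androgen deprivation therapy, and the labels give neither how it was done nor how many animals went into a library. The Trp53 deletion is restricted to the prostate, and a further prostate-restricted deletion that all 4 groups share is not reported here. With 1 library per group there was no test, and every interval printed is a 95% interval that covers counting error only. Within a genotype, ADT cannot be told apart from age or from the library itself, and the same holds for genotype and library.

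Androgen signalling in the prostate depends on local steroid conversion. Srd5a1 and Srd5a2 reduce testosterone to dihydrotestosterone, the strongest natural androgen, and enzymes of the Akr1c family can reduce dihydrotestosterone further to a weak androgen. Sult1e1 attaches sulfate to estrogens, which then no longer bind the estrogen receptor. Hsd17b4 and Hsd17b7 work in opposite directions on estradiol, which the first oxidises and the second can make from estrone. Hsd11b1 regenerates active glucocorticoid from its inactive keto form. Several of these proteins have other duties: Srd5a3 makes dolichol for protein glycosylation, Hsd17b4 is a peroxisomal enzyme of fatty acid oxidation, and Hsd17b7 is a ketosterol reductase of cholesterol synthesis.

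The promoters of the 2 members whose levels differed most between the libraries, Srd5a1 and Sult1e1, are of unlike kinds. Both are printed 5' to 3' on the gene's strand, from 250 bases before to 50 bases after the RefSeq start on GRCm38.p6, with GC boxes (GGGCGG, the letters that Sp1-type factors bind, searched on both strands) in capitals. The Srd5a1 window is chr13:69611414-69611713 on the minus strand, and the Sult1e1 window is chr5:87591562-87591861, also on the minus strand.
Srd5a1: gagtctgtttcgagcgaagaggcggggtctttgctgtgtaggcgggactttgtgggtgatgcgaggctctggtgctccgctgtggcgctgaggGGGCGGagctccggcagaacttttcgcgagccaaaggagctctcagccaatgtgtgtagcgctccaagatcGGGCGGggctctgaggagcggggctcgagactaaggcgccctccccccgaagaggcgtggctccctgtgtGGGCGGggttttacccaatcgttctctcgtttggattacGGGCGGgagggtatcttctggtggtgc
Sult1e1: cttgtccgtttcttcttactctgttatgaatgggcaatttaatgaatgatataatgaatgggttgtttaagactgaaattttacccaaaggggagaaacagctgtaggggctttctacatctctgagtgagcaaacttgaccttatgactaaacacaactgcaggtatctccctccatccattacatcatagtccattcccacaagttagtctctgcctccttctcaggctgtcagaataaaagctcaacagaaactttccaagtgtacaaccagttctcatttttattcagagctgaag
The Srd5a1 window holds 24 CpG dinucleotides and 4 GC boxes, and 80.0% of all windows hold fewer CpG. The Sult1e1 window holds 1 CpG and no GC box, and 5.43% of all windows hold fewer CpG. At least 1 GC box stands in 35.7% of the 32851 promoter windows in the table. TATAAA, searched on both strands, stands in 13.6% of them, and is in neither the Srd5a1 nor the Sult1e1 window. These matches describe letters only.

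On the GRCm38 build with GENCODE M21 genes, Srd5a1 lies at chr13:69573449-69611442 on the minus strand. It overlaps Gm17108 on the same strand and Nsun2 on the other strand. Sult1e1 lies at chr5:87575969-87591594 on the minus strand, and no annotated gene overlaps it. Hsd11b1 lies at chr1:193221634-193264075 on the minus strand. It overlaps Gm38118 on the same strand, and 4930570N18Rik and Lamb3 on the other strand. No source used here says whether counting used strand. If it did not, reads of Srd5a1 and Nsun2, or of Hsd11b1 and Lamb3, may not be separable. Strand cannot separate Srd5a1 from Gm17108, or Hsd11b1 from Gm38118, in either case.

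After filtering, 28998 of 36326 barcodes were kept, between 5389 and 8833 per library, with median depths of 4123 to 5660 UMIs per cell. A UMI is a molecular tag that counts 1 captured RNA molecule, and levels are given as UMIs summed over a cell class per 1000000 UMIs of that class (CPM). Only 97 of 28901 barcode sequences occurred in more than 1 library. Clustering without the 8 members gave 38 clusters, of which 29 were named "-like" by their markers. Luminal progenitor-like cells held all 8 of their markers and numbered 443, 521, 150 and 312, in the order of the groups above. Fibroblast-like cells numbered 1308, 1244, 776 and 1592. Differentiated luminal-like cells numbered only 25 with ADT, against 1216 without, in Trp53-intact mice, and 2 with ADT, against 159 without, in Trp53-deleted mice, so no ADT comparison was made in them. Trp53 itself had 18.9 and 17.5 CPM in luminal progenitor-like cells of the Trp53-deleted libraries with and without ADT, against 87.9 and 55.8 CPM in those of the Trp53-intact ones. In fibroblast-like cells Trp53 had 45.46 and 46.05 CPM in the Trp53-deleted libraries with and without ADT. The Trp53-intact ones had 68.91 and 44.26 CPM there. A 3' count may lie outside the deleted part of Trp53, so these levels check the label only in part. "Trp53-deleted" names the genotype of the mice, and does not say that each cell class lost Trp53.

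The enzymes differed in the cells that carried them. Of all UMIs in kept cells, fibroblast-like cells held 97.2% of the 40171 for Sult1e1, 77.0% of the 7116 for Hsd11b1 and 88.5% of the 26 for Srd5a2. Luminal progenitor-like cells held 31.3% of the 3080 Srd5a1 UMIs, the largest share of any class, while unnamed clusters held 25.62%. Endothelial-like cells held 29.8% of the 581 Akr1c14 UMIs, the largest share among named classes, while unnamed clusters held 61.45%. Srd5a3, with 7852 UMIs, and Hsd17b4, with 12537, were detected in nearly all classes, and macrophage-like cells held 27.8% and 28.8% of them. Unnamed clusters held 30.65% and 24.64%. Hsd17b7 had 2908 UMIs, of which 50.5% were in unnamed clusters and 19.8% in fibroblast-like cells.

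**Figure D1:**
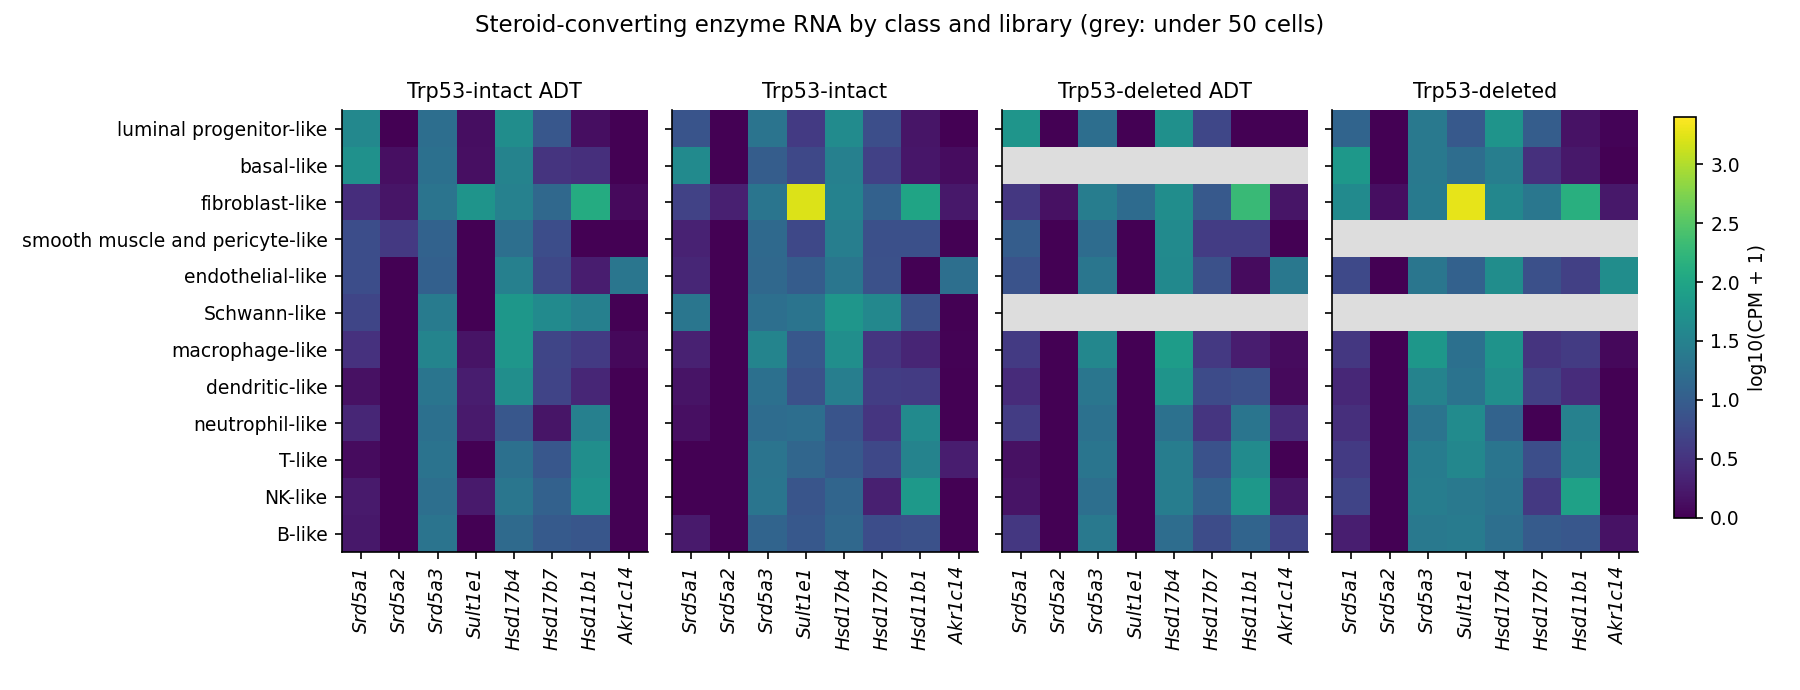
Level of the 8 enzymes in each named cell class (rows) of the 4 libraries (panels), as log10(CPM + 1) of summed UMIs; grey marks classes with under 50 cells in that library. Sult1e1 and Hsd11b1 stand out in fibroblast-like cells, Srd5a1 in basal-like and luminal progenitor-like cells, and Akr1c14 in endothelial-like cells, while Srd5a3 and Hsd17b4 spread over most classes.

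Srd5a1, the reductase that makes dihydrotestosterone, was higher in luminal progenitor-like cells with ADT in both genotypes. In Trp53-intact mice it had 37.3 CPM with ADT (33.9 to 41.0, 429 UMIs) and 6.56 CPM without (5.51 to 7.76, 136 UMIs), a ratio of 5.68 (4.67 to 6.94). In Trp53-deleted mice it had 57.6 CPM with ADT (50.7 to 65.2, 253 UMIs) and 11.4 CPM without (9.61 to 13.4, 147 UMIs), a ratio of 5.06 (4.12 to 6.25). The intervals with and without ADT did not overlap in either genotype. The share of luminal progenitor-like cells with at least 1 Srd5a1 UMI was 31.8% with ADT and 14.4% without in Trp53-intact mice, and in Trp53-deleted mice it was 66 of 150 cells and 78 of 312. The cells with ADT were the shallower ones, with a median of 11654 UMIs against 30535 in Trp53-intact mice and 19722 against 35249 in Trp53-deleted mice. Thinned to 1000 UMIs per cell, the shares were 4.33% with ADT and 0.579% without in Trp53-intact mice (439 and 518 cells, 4 and 3 shallower cells left out), and 4.00% and 0.643% in Trp53-deleted mice (150 and 311 cells, 0 and 1 left out). Neutrophil-like cells, which should lack the gene, had a UMI in at most 0.813% of cells before thinning, at median depths of 2615 to 3537 UMIs. A few cells carried much of the signal: the 10 cells with most Srd5a1 UMIs held 28.7% and 43.4% of it in Trp53-intact cells with and without ADT, and 46.2% and 35.4% in Trp53-deleted cells.

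Marker levels in the luminal progenitor-like class differed with ADT. Summed luminal markers were 26.1 CPM with ADT and 3251 CPM without in its Trp53-intact cells, and 27.1 and 1216 CPM in its Trp53-deleted cells. With ADT, Msmb, Defb50, Tgm4 and Sbp were at 0 in both genotypes. Summed basal markers were 1564 and 1204 CPM in Trp53-intact cells with and without ADT, and 1527 and 1888 CPM in Trp53-deleted cells. The luminal list was also lower with ADT in neutrophil-like cells. There it had 4.99 and 447 CPM in Trp53-intact mice with and without ADT, and 0.769 and 147 CPM in Trp53-deleted mice. The part of background in the luminal marker difference was not tested, nor was the part of these markers in the Srd5a1 difference. Differentiated luminal-like cells without ADT had 12.4 CPM of Srd5a1 (4.02 to 28.9, only 5 UMIs) in Trp53-deleted mice. In Trp53-intact mice they had 7.44 CPM (4.66 to 11.3, 22 UMIs). Both intervals overlapped those of the luminal progenitor-like cells of the same libraries, and were wider.

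Basal-like cells already carried Srd5a1 without ADT. Their level was 52.1 CPM with ADT and 40.8 CPM without in Trp53-intact mice (141 and 139 UMIs), a ratio of 1.28 (1.003 to 1.625). In Trp53-deleted mice it was 99.3 CPM with ADT, from only 29 cells and 33 UMIs, and 63.5 CPM without (98 UMIs), a ratio of 1.56 (1.02 to 2.34). Without ADT, basal-like cells thus had more Srd5a1 per 1000000 UMIs than luminal progenitor-like cells, with intervals that did not overlap. With ADT the basal-like level was still above it in both genotypes. Between genotypes, luminal progenitor-like cells of Trp53-deleted mice had 1.54 times the Srd5a1 level of Trp53-intact cells with ADT and 1.73 times without.

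Fibroblast-like cells of 1 library also carried Srd5a1. The level there was 1.75 CPM in the Trp53-intact library with ADT and 3.67 CPM in that without (22 and 33 UMIs). It was 2.61 CPM in the Trp53-deleted library with ADT and 41.8 CPM in that without (18 and 517 UMIs). Without ADT, fibroblast-like cells of the Trp53-deleted library thus had 11.4 times the level of those of the Trp53-intact one (8.001 to 16.71). The ratio with ADT over without was 0.476 (0.264 to 0.841) in Trp53-intact mice and 0.0624 (0.0367 to 0.0996) in Trp53-deleted mice. Nearly all of the signal lay in 1 of 4 fibroblast-like clusters, the one led by Col6a5, Sult1e1, Scara5 and C7. In it, 507 UMIs fell in 259 of 1150 cells (22.5%) of the Trp53-deleted library without ADT, at 51.4 CPM, against 5.45 CPM in the Trp53-intact library without ADT. This cluster held only 10 cells of the Trp53-deleted library with ADT, none with an Srd5a1 UMI, so the ADT ratio of the whole class and the makeup of the class moved together. Cut more finely, 344 cells of a subcluster led by Tnfaip6, Has1 and Pi16 had 81.7 CPM in the Trp53-deleted library without ADT, against 5.72 CPM in 207 cells of the Trp53-intact one. Summed luminal progenitor markers in fibroblast-like cells stood at 303 and 340 CPM in the Trp53-intact libraries with and without ADT, and 159 and 197 CPM in the Trp53-deleted ones. Summed basal markers stood at 24.4 and 26.0 CPM, and 6.23 and 20.6 CPM, and summed luminal markers at 1.03 and 160 CPM, and 0.869 and 34.4 CPM, in the same order. All 3 lists were higher without ADT in the Trp53-deleted pair, as Srd5a1 was, and also in the Trp53-intact pair. Their part in the Srd5a1 difference was not tested.

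**Figure D2:**
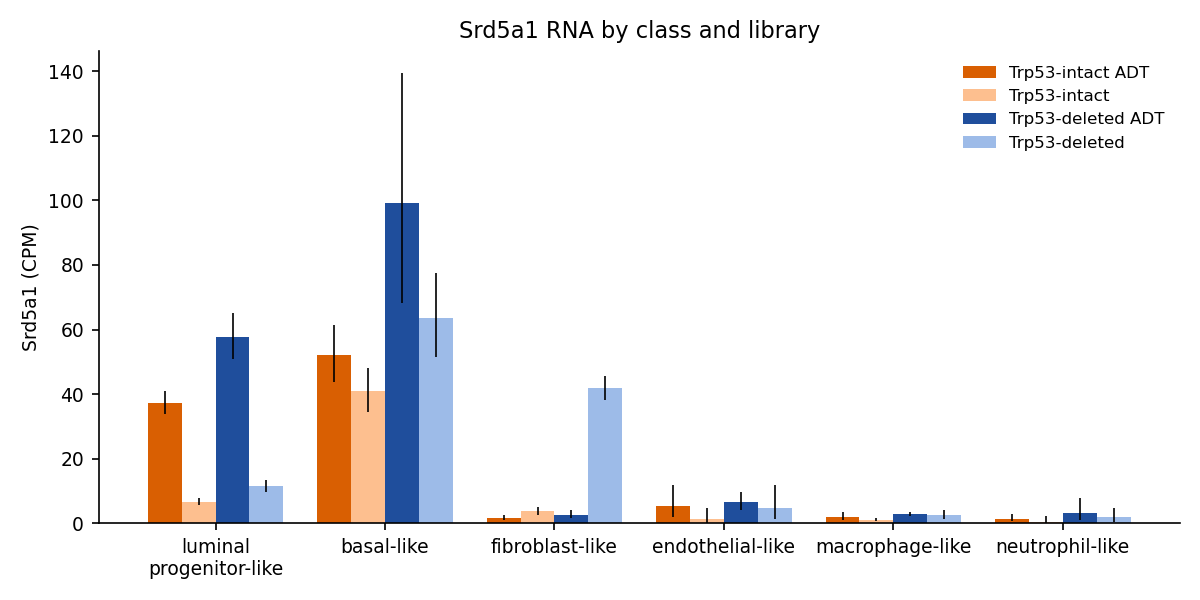
Srd5a1 level in CPM (vertical axis) in 6 cell classes, 1 bar per library, with exact 95% Poisson intervals of the summed UMIs. Luminal progenitor-like bars with ADT stand above those without ADT in both genotypes (37.3 against 6.56 CPM and 57.6 against 11.4 CPM), and the single tall fibroblast-like bar is the Trp53-deleted library without ADT at 41.8 CPM.

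Srd5a2, the other enzyme that makes dihydrotestosterone, was nearly absent from the counts. It had 26 UMIs in 22 of 28998 cells, 23 of them in fibroblast-like cells, where the 4 libraries held 7 and 9 UMIs (Trp53-intact with and without ADT) and 3 and 4 UMIs (Trp53-deleted with and without ADT). Of those 23 UMIs, 12 lay in the cluster led by Wif1 and Lgr5, with 2 to 4 per library. No luminal progenitor-like cell of any library had a Srd5a2 UMI. No difference with ADT was detectable at this depth.

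Srd5a3, whose product feeds the dolichol sugar carrier, had no class of its own. In luminal progenitor-like cells it had 16.2 CPM with ADT and 19.5 CPM without in Trp53-intact mice (ratio 0.827, 0.692 to 0.987), and 15.9 and 22.7 CPM in Trp53-deleted mice (ratio 0.703, 0.534 to 0.915). Macrophage-like cells had the highest level among classes of at least 50 cells in each library. There it was 32.94 CPM with ADT and 33.04 CPM without in Trp53-intact mice, and 36.7 and 61.6 CPM in Trp53-deleted mice, a ratio of 0.596 (0.528 to 0.673). The macrophage-like class drew on different clusters in these libraries. A cluster led by Ccl8, Cd209f and Cd163 held 89 and 1215 cells in Trp53-intact mice with and without ADT, and 54 and 543 in Trp53-deleted mice, and one led by Ms4a4c, Trem2 and Ms4a6c held 228 and 156, and 2131 and 103. In basal-like cells Srd5a3 had 17.0 CPM with ADT and 9.11 CPM without in Trp53-intact mice (ratio 1.87, 1.16 to 3.05), and 12.04 CPM (29 cells, 4 UMIs) and 22.67 CPM in Trp53-deleted mice, a ratio of 0.531 whose interval (0.137 to 1.48) includes 1.

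Sult1e1, the estrogen sulfotransferase, was the member that differed most with ADT. In fibroblast-like cells it had 57.2 CPM with ADT (53.1 to 61.5, 720 UMIs) and 1686 CPM without (1659 to 1713, 15162 UMIs) in Trp53-intact mice, a ratio of 0.0339 (0.0314 to 0.0365). In Trp53-deleted mice it had 14.6 CPM with ADT (11.9 to 17.8, 101 UMIs) and 1862 CPM without (1838 to 1886, 23046 UMIs), a ratio of 0.00785 (0.00639 to 0.00955). Both libraries with ADT were low and both without were high, with a wide gap between them. The share of fibroblast-like cells with a UMI was 16.4% with ADT and 72.3% without in Trp53-intact mice, and 6.83% and 76.9% in Trp53-deleted mice. Thinned to 1000 UMIs per cell, the shares were 4.12% and 59.2% in Trp53-intact mice with and without ADT (1215 and 1036 cells), and 1.06% and 61.6% in Trp53-deleted mice (756 and 1499 cells). Summed fibroblast markers in the class were 22760 and 28030 CPM in Trp53-intact mice with and without ADT, and 30920 and 29640 CPM in Trp53-deleted mice. Summed macrophage markers there were 3327 and 2367 CPM, and 3152 and 2322 CPM, in the same order, and their part in the Sult1e1 difference was not tested.

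The makeup of the fibroblast-like class also differed between libraries. The cluster led by Col6a5, Sult1e1, Scara5 and C7 held 61 and 427 cells of the Trp53-intact libraries with and without ADT, and 10 and 1150 of the Trp53-deleted ones. The cluster led by Apod, Mmp3 and Igfbp3 held 795 and 12 cells, and 154 and 20 cells, in the same order. In 3 of the 4 clusters Sult1e1 was lower with ADT in both genotypes, from levels without ADT far above those of neutrophil-like cells. In the Col6a5 cluster it had 11.7 CPM with ADT and 2448 CPM without in Trp53-intact mice, and 12.7 CPM (10 cells) and 2278 CPM in Trp53-deleted mice. In the cluster led by Mfap4 and Cxcl14 it had 4.91 and 973 CPM in Trp53-intact mice with and without ADT, and 13.3 and 688 CPM in Trp53-deleted mice. The Apod cluster kept the most with ADT, at 86.7 CPM against 902 CPM without (12 cells) in Trp53-intact mice and 42.8 CPM against 735 CPM (20 cells) in Trp53-deleted mice. The Wif1 and Lgr5 cluster was low throughout, at 0.702 and 11.2 CPM (1 and 4 UMIs) in Trp53-intact mice with and without ADT, and 0.534 and 36.8 CPM (1 and 66 UMIs) in Trp53-deleted mice. Its levels without ADT did not exceed the neutrophil-like background of the same libraries, given below, and its difference is not read as expression. The level outside fibroblast-like cells varied with the class. In the Trp53-deleted library without ADT it was 42.6 CPM in neutrophil-like cells (median 2627 UMIs) and 17.1 CPM in macrophage-like cells (median 7309 UMIs). Which of them is nearer to the background of the Wif1 and Lgr5 cluster was not tested.

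Outside fibroblast-like cells Sult1e1 was low. Neutrophil-like cells, which should lack it, had 0.767 and 15.9 CPM in the Trp53-intact libraries with and without ADT, and 0 and 42.6 CPM in the Trp53-deleted ones. Luminal progenitor-like cells lay below that, at 0.348 and 2.80 CPM, and 0 and 7.97 CPM. In Trp53-deleted luminal progenitor-like cells these were 0 UMIs with ADT and 103 without. In the Trp53-intact library without ADT, luminal-like cells had 23.3 CPM (18.1 to 29.5) and Schwann-like cells 19.3 CPM (10.3 to 33.1), with intervals that overlapped that of neutrophil-like cells (11.4 to 21.6). The differences with ADT in luminal progenitor-like, T-like and macrophage-like cells moved with the fibroblast-like level of the same library, and are not read as expression.

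**Figure D3:**
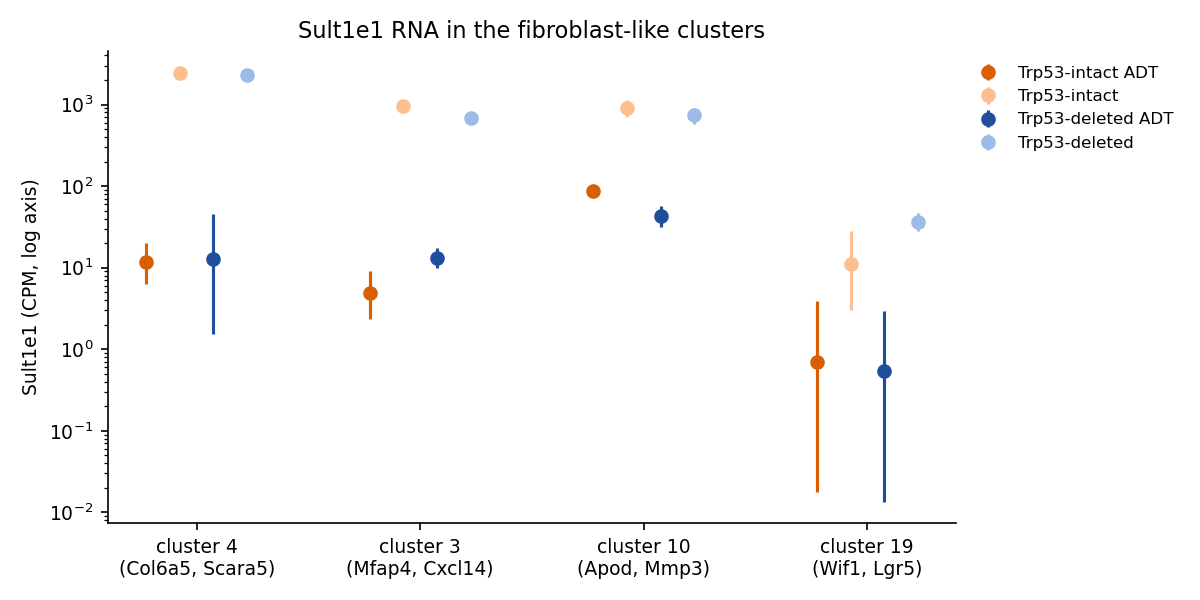
Sult1e1 level in CPM (log axis) in the 4 fibroblast-like clusters, named by their leading genes, 1 point per library with exact 95% Poisson intervals. In the Col6a5, Mfap4 and Apod clusters both libraries with ADT lie far below both without, for example 11.7 and 12.7 CPM against 2448 and 2278 CPM in the Col6a5 cluster, while the Wif1 cluster (11.2 and 36.8 CPM without ADT) is no higher than the neutrophil-like background of 15.9 and 42.6 CPM.

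Hsd11b1, which regenerates active glucocorticoid, was highest in fibroblast-like cells of all 4 libraries. It had 121 CPM with ADT (115 to 127, 1522 UMIs) and 96.4 CPM without (90.1 to 103, 867 UMIs) in Trp53-intact mice, a ratio of 1.25 (1.15 to 1.36). In Trp53-deleted mice it had 201 CPM with ADT (191 to 212, 1389 UMIs) and 138 CPM without (131 to 144, 1704 UMIs), a ratio of 1.46 (1.36 to 1.57). Both ratios were under 1.5-fold, and the intervals with and without ADT did not overlap in either genotype. The Trp53-deleted direction depended on which cells made up the class. Its log2 ratio was 0.53 on CPM + 5, but -1.04 when each library was clustered separately, and -2.38 with a cluster led by Crabp1 counted in, a setting added after seeing the data. Fibroblast-like cells of Trp53-deleted mice had 1.66 times the level of those of Trp53-intact mice with ADT and 1.43 times without.

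The 4 fibroblast-like clusters did not share 1 direction for Hsd11b1. The Wif1 and Lgr5 cluster had 99.7 CPM with ADT and 30.7 CPM without in Trp53-intact mice, and 283 and 95.3 CPM in Trp53-deleted mice, ratios of 3.25 and 2.97. The Col6a5 cluster was lower with ADT in Trp53-intact mice, at 43.4 against 101 CPM (ratio 0.428, 0.311 to 0.576). In Trp53-deleted mice it had 88.9 (10 cells) against 141 CPM, a ratio of 0.630 whose interval (0.344 to 1.06) includes 1. The Mfap4 cluster had 205 and 96.5 CPM in Trp53-intact mice with and without ADT. In Trp53-deleted mice it had 143 and 172 CPM, a ratio of 0.830 whose interval (0.672 to 1.03) includes 1. The Apod cluster had 114 and 104.5 CPM (12 cells without ADT), and 274.5 and 335.8 CPM (20 cells without ADT), in the same order. Both of its ratio intervals included 1.

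NK-like cells had the second highest Hsd11b1 level in each library, with 53.4 and 66.0 CPM in Trp53-intact mice with and without ADT, and 63.3 and 86.9 CPM in Trp53-deleted mice. T-like cells had 47.4 and 31.8 CPM, and 42.4 and 33.8 CPM, in the same order. Neutrophil-like cells had 29.7 and 40.8 CPM in Trp53-intact mice with and without ADT, and in Trp53-deleted mice 26 UMIs with ADT (interval 13.1 to 29.3 CPM) and 65 UMIs without (30.4 CPM). Luminal progenitor-like cells held under 1 CPM in each library, with 0.579 CPM as the highest, and macrophage-like cells at most 2.91 CPM. The NK-like, T-like and neutrophil-like levels were thus far above those of the luminal progenitor-like and macrophage-like cells in the same libraries. B-like cells lay between, at 6.065 to 11.5 CPM.

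**Figure D4:**
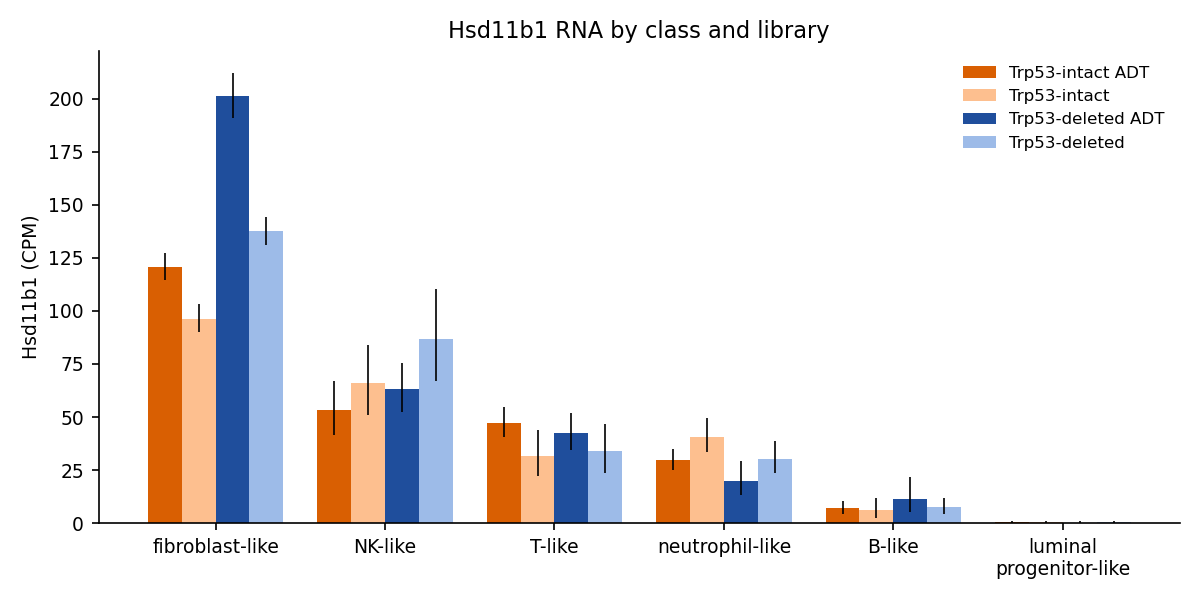
Hsd11b1 level in CPM (vertical axis) in 6 cell classes, 1 bar per library, with exact 95% Poisson intervals. Fibroblast-like bars are the tallest in each library (96.4 to 201 CPM), NK-like bars come next (53.4 to 86.9 CPM), and luminal progenitor-like bars are near 0.

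Hsd17b4, the peroxisomal enzyme that oxidises estradiol and shortens fatty acids, differed by less than 1.5-fold with ADT in the luminal progenitor-like, fibroblast-like and macrophage-like classes. Luminal progenitor-like cells had 45.3 CPM with ADT and 42.1 CPM without in Trp53-intact mice (ratio 1.08), and 49.2 and 56.6 CPM in Trp53-deleted mice (ratio 0.870). Fibroblast-like cells had 30.57 and 31.03 CPM in Trp53-intact mice with and without ADT, and 44.88 and 35.95 CPM in Trp53-deleted mice, a ratio of 1.25 (1.08 to 1.45). Macrophage-like cells had 59.7 and 47.0 CPM, and 73.9 and 54.4 CPM, in the same order. The class with the highest level changed from library to library, and in all 4 the intervals of the first and the next class overlapped. In the Trp53-deleted library with ADT, macrophage-like cells led with 73.9 CPM (70.8 to 77.1), and the next class, lymphatic endothelial-like, had 57.7 CPM (42.1 to 77.2). Trp53-intact dendritic-like cells had 46.8 CPM with ADT and 27.7 CPM without, a ratio of 1.69 (1.31 to 2.16), and Trp53-deleted ones had 55.9 and 47.2 CPM, a ratio of 1.18 (0.955 to 1.47). Neutrophil-like cells were at the low end, with 6.60 to 17.7 CPM.

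Hsd17b7, the enzyme shared by estradiol formation and cholesterol synthesis, had ratios on opposite sides of 1 in the 2 genotypes in the luminal progenitor-like and fibroblast-like classes. In macrophage-like, dendritic-like and T-like cells both genotypes lay above 1, with ratios of 1.12 to 1.72 whose intervals included 1. In luminal progenitor-like cells it had 7.48 CPM with ADT and 5.55 CPM without in Trp53-intact mice (86 and 115 UMIs, ratio 1.35, 1.01 to 1.80), but 4.33 and 8.97 CPM in Trp53-deleted mice (19 and 116 UMIs, ratio 0.482, 0.280 to 0.787). In fibroblast-like cells it had 13.3 CPM with ADT and 10.2 CPM without in Trp53-intact mice (167 and 92 UMIs, ratio 1.30, 0.999 to 1.69), and 7.82 and 21.3 CPM in Trp53-deleted mice (54 and 264 UMIs, ratio 0.367, 0.268 to 0.493). The values within single fibroblast-like clusters differed from that of the whole class. Within the Col6a5 cluster the level was 26.2 and 15.5 CPM in Trp53-intact mice with and without ADT, and 25.4 (10 cells) and 24.9 CPM in Trp53-deleted mice. In the Mfap4 cluster it was 2.95 and 5.04 CPM, and 8.26 and 9.94 CPM, in the same order. With the 4 clusters weighted alike, the Trp53-deleted log2 ratio of the class, computed on CPM + 5, was 0.15 in place of -1.04. Schwann-like cells had the highest level in both Trp53-intact libraries, at 41.6 CPM with ADT (86 cells) and 37.2 CPM without (181 cells).

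Akr1c14, a mouse enzyme that reduces dihydrotestosterone to the weaker androstanediol, was highest, among named classes of at least 50 cells, in endothelial-like cells of all 4 libraries, and no other such class passed 4.45 CPM. Endothelial-like cells had 20.7 CPM with ADT and 16.6 CPM without in Trp53-intact mice (23 and 25 UMIs, ratio 1.24, 0.675 to 2.28), and 22.2 and 44.9 CPM in Trp53-deleted mice (86 and 39 UMIs, ratio 0.495, 0.335 to 0.742). The 2 Trp53-intact intervals overlapped, and the Trp53-deleted ones did not. Lymphatic endothelial-like cells had 0 Akr1c14 UMIs in all 4 libraries. Fibroblast-like cells had 3 and 6 UMIs in the Trp53-intact libraries with and without ADT, and 4 and 8 UMIs in the Trp53-deleted ones.

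Some signal lay in clusters that the naming rules left unnamed. A cluster led by Crabp1 and Cdkn2a, with 653 of its 654 cells in the Trp53-deleted library with ADT and a median depth of 80669 UMIs, held 262 Akr1c14 UMIs at 4.48 CPM and 1183 Hsd17b7 UMIs at 20.2 CPM. The same cluster had 10.5 CPM of Srd5a1 and 35.3 CPM of Srd5a3. Its best marker score was for fibroblasts (1.43, with 7 markers detected). Its leading genes matched a list kept apart from the class markers, so it stayed out of the fibroblast-like class. A cluster led by Lgals4 had 4.26 CPM of Akr1c14 in the Trp53-deleted library with ADT (64 cells) and 35.9 CPM in the Trp53-intact library without ADT (55 cells). A shallow epithelial cluster had 18.3 CPM of Srd5a1 in the Trp53-intact library with ADT (1203 cells) and 18.0 CPM in the Trp53-deleted one (265 cells). Without ADT it held only 48 and 15 cells and no Srd5a1 UMI. Its best score was for luminal progenitor markers (1.79). Low depth, with none of those markers among its leading genes, kept it unnamed.

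Members past a 1.5-fold difference were counted beside the share of all genes in the same class. A gene needed 20 or more UMIs, both libraries together, to be measured, and it was called at 1.5-fold or more on the CPM + 5 scale. In Trp53-intact luminal progenitor-like cells, 1 of 5 measured members was higher with ADT (Srd5a1) and 0 were lower, where 6.28% and 5.07% of all 13407 measured genes were higher and lower. In Trp53-deleted luminal progenitor-like cells, 1 of 5 was higher (Srd5a1) and 1 lower (Sult1e1, at background), where 5.99% and 7.45% of 12599 genes were. In Trp53-intact fibroblast-like cells, 0 of 6 were higher and 1 was lower (Sult1e1), against 7.08% and 6.25% of 13143 genes. In Trp53-deleted fibroblast-like cells, 0 of 6 were higher and 3 were lower (Sult1e1, Srd5a1 and Hsd17b7), against 8.67% and 10.5% of 13297 genes. There the count of members past 1.5-fold either way became 5 when each library was clustered separately. The share of all genes in that setting was not computed. The median log2 ratio of the measured members was 0.09 and -0.40 in luminal progenitor-like cells of Trp53-intact and Trp53-deleted mice, where that of all genes was 0.06 and -0.07. In fibroblast-like cells it was -0.03 and -0.46, where that of all genes was 0.06 and -0.06.

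The 3 other classes compared gave the following counts. In Trp53-intact basal-like cells 1 of 3 measured members was higher (Srd5a3) and 0 were lower, against 7.56% and 5.60% of genes. In Trp53-deleted basal-like cells 1 of 4 was higher (Srd5a1) and 2 were lower, against 7.54% and 31.7%. The lower ones were Srd5a3, from 4 UMIs with ADT, and Sult1e1 at background level. In Trp53-intact endothelial-like cells 0 of 3 were higher and 0 lower, against 9.74% and 7.02%, and in Trp53-deleted ones 0 of 5 were higher and 1 lower (Akr1c14), against 13.9% and 23.2%. In macrophage-like cells 0 of 6 were higher in either genotype, against 6.20% of genes in Trp53-intact and 4.35% in Trp53-deleted mice. Sult1e1 at background level was lower in Trp53-intact macrophage-like cells, and Sult1e1 and Srd5a3 in Trp53-deleted ones, against 4.37% and 13.5% of genes.

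**Figure D5:**
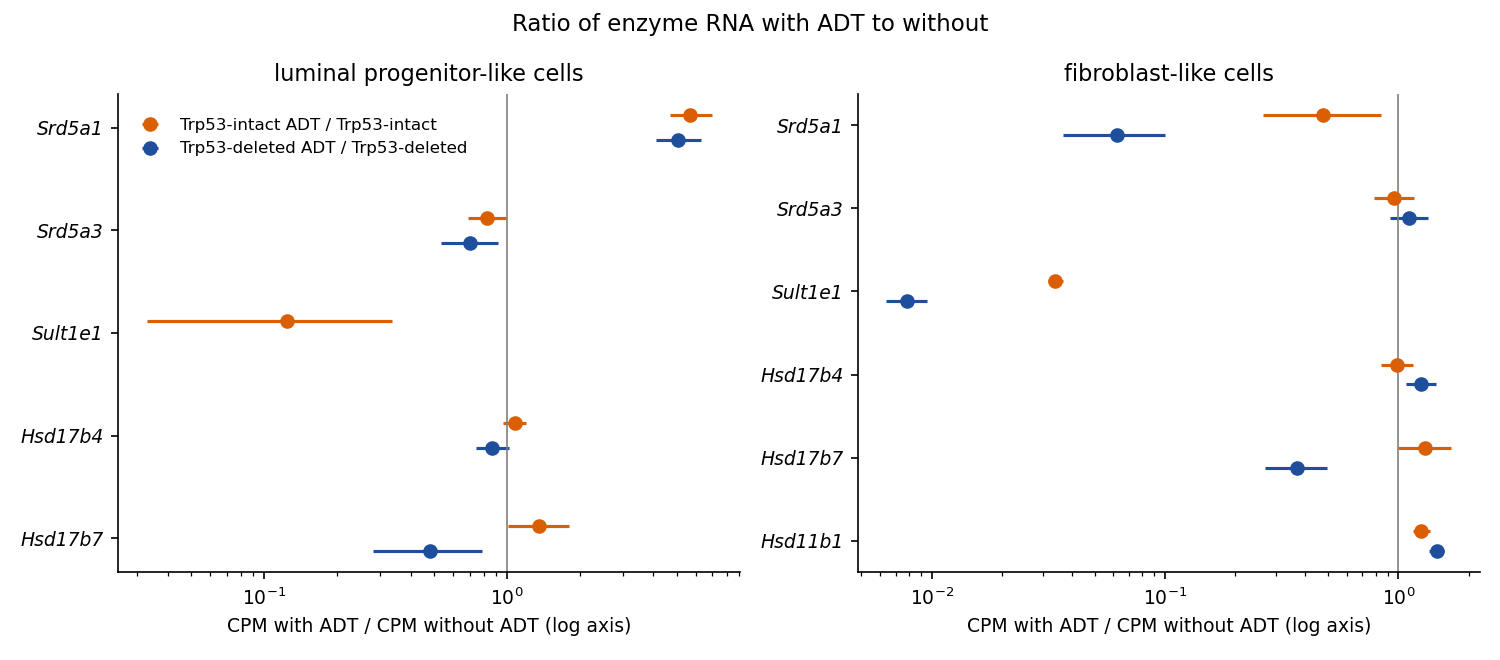
Ratio of the level with ADT to that without (log axis), for each measured member in luminal progenitor-like and fibroblast-like cells of both genotypes, with 95% counting intervals. Srd5a1 stands right of 1 in luminal progenitor-like cells of both genotypes (5.68 and 5.06), and Sult1e1 stands far left of 1 in fibroblast-like cells (0.0339 and 0.00785); Sult1e1 in Trp53-deleted luminal progenitor-like cells is not drawn, since it had 0 UMIs with ADT.

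Other genes of steroid metabolism differed in both directions. Of 57 listed genes in the matrices, besides the members, 33 were measured in Trp53-intact luminal progenitor-like cells, with 2 higher and 8 lower with ADT, and 30 in Trp53-deleted ones, with 4 higher and 7 lower. Of all measured genes, 6.28% were higher and 5.07% lower in Trp53-intact luminal progenitor-like cells, and 5.99% and 7.45% in Trp53-deleted ones. Ugt2b34, a glucuronosyltransferase, was higher in both, at 143 CPM with ADT and 45.7 CPM without in Trp53-intact cells, and 85.4 and 34.4 CPM in Trp53-deleted cells. Hsd11b2, which inactivates glucocorticoid, was lower in both, at 22.2 and 66.1 CPM in Trp53-intact cells with and without ADT, and 46.7 and 123 CPM in Trp53-deleted cells. Papss2, which makes the sulfate donor of sulfotransferases such as Sult1e1, had 2.96 and 20.2 CPM in Trp53-intact cells, and 2.96 and 19.9 CPM in Trp53-deleted cells, in the same order. In fibroblast-like cells 3 of 28 measured genes of the list were higher and 4 lower in Trp53-intact mice, and 5 of 30 were higher and 5 lower in Trp53-deleted mice. Of all genes 7.08% were higher and 6.25% lower there in Trp53-intact mice, and 8.67% and 10.5% in Trp53-deleted mice. Cyp27a1, a sterol hydroxylase, was lower in both, at 26.0 and 62.5 CPM in Trp53-intact cells with and without ADT, and 36.2 and 141 CPM in Trp53-deleted cells. H6pd, which supplies Hsd11b1 with its cofactor, had 106 CPM with ADT and 63.3 CPM without in Trp53-intact fibroblast-like cells. Papss2 was lower in Trp53-deleted fibroblast-like cells, at 26.6 CPM with ADT and 75.9 CPM without. Tspo, a mitochondrial outer membrane protein, had 204 CPM with ADT and 413 CPM without in Trp53-intact fibroblast-like cells, but 527 and 272 CPM in Trp53-deleted ones.

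Lists of genes around the members' other duties were counted in the same way, to be read against the shares of all genes given above. In Trp53-deleted fibroblast-like cells the list counts depended on the clustering, since 23 list genes passed in all, but 46 when each library was clustered separately. The share of all genes in that setting was not computed. Of 20 cholesterol synthesis genes, the pathway of Hsd17b7, 6 were lower with ADT in Trp53-intact luminal progenitor-like cells, 5 in Trp53-deleted ones and 3 in Trp53-intact fibroblast-like cells, with none higher. In Trp53-deleted fibroblast-like cells 6 were higher and none lower, among them Fdps at 30.7 CPM with ADT and 7.51 CPM without, and Cyp51 at 26.8 and 6.06 CPM. The list's median log2 ratio was -0.29 and -0.32 in Trp53-intact and Trp53-deleted luminal progenitor-like cells and -0.31 and 0.38 in fibroblast-like cells. Of 19 measured peroxisomal fatty acid oxidation genes, the pathway of Hsd17b4, 0 were higher and 2 lower in Trp53-intact luminal progenitor-like cells, and 1 was higher (Acaa1b, 33.9 CPM with ADT and 4.49 CPM without) and 3 lower in Trp53-deleted ones. In fibroblast-like cells 0 of 19 passed in Trp53-intact mice, and 1 of 18 was higher in Trp53-deleted mice (Scp2, 230 and 126 CPM). Of 21 measured dolichol pathway genes, the pathway of Srd5a3, none was higher and 0 and 3 were lower in Trp53-intact and Trp53-deleted luminal progenitor-like cells. In fibroblast-like cells none was higher and 1 lower in Trp53-intact mice, and 3 were higher and 1 lower in Trp53-deleted mice.

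Of 7 steroid receptor genes, 2 of 7 were higher with ADT in luminal progenitor-like cells of each genotype, Esr1 and Pgr, the estrogen and progesterone receptors. Of all genes, 6.28% and 5.99% were higher there in Trp53-intact and Trp53-deleted mice. Esr1 had 74.0 CPM with ADT and 19.7 CPM without in Trp53-intact cells, and 54.4 and 13.7 CPM in Trp53-deleted cells. In fibroblast-like cells 0 of 5 measured receptors passed in Trp53-intact mice, where 7.08% of all genes were higher and 6.25% lower. In Trp53-deleted fibroblast-like cells 2 of 5 were higher, against 8.67% of all genes. These were Esr1 at 42.1 CPM with ADT and 18.7 CPM without and Pgr at 6.95 and 0.404 CPM. The other 3 had log2 ratios below 0 without passing 1.5-fold, among them the glucocorticoid receptor gene Nr3c1 at 89.3 CPM with ADT and 122 CPM without, and the median of the 5 was -0.42.

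Likeness of pattern was measured as Pearson's r of log2(CPM + 5) over 51 sums of class and library from 16 classes, which share libraries and depth, and is given as a description. Srd5a1 was most like Epha1 (r = 0.847), Fgfr2 (0.8403) and Ptpru (0.824). Sult1e1 was most like Col6a5 (0.95), C7 (0.9103) and Col6a6 (0.849), of which Col6a5 and C7 also lead the fibroblast-like cluster with the most Sult1e1. Akr1c14 was most like AU021092 (0.957), Ccdc85a (0.941) and Exoc3l2 (0.940). Hsd11b1 had weaker likenesses, the closest being Pi16 (0.677). The closest genes to Hsd17b4, Srd5a3 and Hsd17b7 were Akr1a1 (0.863), Pigs (0.819) and Abca8b (0.781). Srd5a2 never passed 2.71 CPM in such a sum, and its likenesses, which rest on a handful of UMIs, are not given.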

How the data were processed

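Per the submitters' processing notes, the authors made the deposited count matrices, whole UMI counts per gene and barcode, with Cell Ranger 2.1.1 on mm10. The matrix headers name software version 3.1.0, and this difference was not settled. Per the labels' protocols, tissue was dissociated with collagenase and TrypLE and loaded on a 10x Chromium 3' kit.

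Barcodes had to hold 500 UMIs and 200 genes, and no more than 20% of UMIs could be mitochondrial. Doublets were scored with Scrublet in scanpy 1.11.5. Its automatic threshold marked nearly none, so the highest scores were removed at a share of 0.008 per 1000 barcodes, 487 to 898 per library. Cells were clustered without the 8 members (total scaled to 10000, 2000 variable genes, scaled values capped at 10, 40 principal components, 20 neighbours, Leiden resolution 1). Clusters were named from fixed marker lists, and needed at least 3 detected markers. A cluster stayed unnamed if its marker score was too low, or if another class held more of its 10 leading genes. It also stayed unnamed if it was shallow with no marker of its own among them, or if they matched a list kept apart from the class markers. The smooth muscle and pericyte lists were merged. The scaling and naming thresholds were set after clusters had been seen, and the members and gene lists were chosen with earlier results of these data known. For each class in each library, raw counts were added up and expressed as CPM of the class. Intervals are exact Poisson (levels), conditional binomial (ratios) and Clopper-Pearson (shares), at 95%. They cover counting error only. Log2 ratios used a pseudocount of 5 CPM. The named genes of a list are those with the largest log2 ratio past 1.5-fold, and genes most like a member needed 20 CPM in at least 1 sum. Promoters came from RefSeq on GRCm38.p6, and those of 5 members were searched. Alternatives were other filters, depth thinning, other clusterings and normalisations, with edgeR 4.0.16 for TMM factors only.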

Additional observations from a re-analysis of the deposited data

Results flagged for a closer look

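For 2 enzymes the ratio of the level with ADT to that without lay on opposite sides of 1 in the 2 genotypes, with counting intervals that left 1 out on both sides. Hsd11b1 in macrophage-like cells had a ratio of 2.24 (1.09 to 4.50, 16 and 21 UMIs with and without ADT) in Trp53-intact mice and 0.309 (0.162 to 0.607, 26 and 17 UMIs) in Trp53-deleted mice. These levels, 0.899 to 2.91 CPM, lay far below those of neutrophil-like cells in the same libraries. The macrophage-like class also drew on different clusters, since one led by Ccl8, Cd209f and Cd163 held 89 and 1215 of its cells with and without ADT in Trp53-intact mice, and 54 and 543 in Trp53-deleted mice. Hsd17b7 in luminal progenitor-like cells had a ratio of 1.35 in Trp53-intact mice and 0.482 in Trp53-deleted mice. Each ratio compares 1 library with 1 library, so the difference between genotypes was not tested.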

How the results depend on the processing

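Srd5a1 in luminal progenitor-like cells kept its direction and stayed past 1.5-fold in 15 of 15 settings in Trp53-intact mice (log2 ratio 1.497 to 2.34) and in 14 of 14 in Trp53-deleted mice (1.58 to 2.24). Sult1e1 in fibroblast-like cells did so in 15 of 15 settings in each genotype (-5.13 to -4.66 and -8.15 to -5.39), and Srd5a1 in Trp53-deleted fibroblast-like cells in 15 of 15 (-3.57 to -1.67). Hsd17b7 in Trp53-deleted fibroblast-like cells turned from -1.04 to 0.15 with the fibroblast-like clusters weighted alike, a setting added after seeing the data, as were those that put a named cluster back. The count of members past 1.5-fold in Trp53-intact luminal progenitor-like cells was 1, and 2 with all epithelial-like cells, thinned counts, at least 1000 UMIs per cell, doublets kept, separate clustering of each library, the neutrophil-like level subtracted or a pseudocount of 1. In Trp53-deleted ones it was 2, and 1 with thinned counts. In Trp53-intact fibroblast-like cells it was 1, and 2 with clusters weighted alike or a pseudocount of 1 and 3 with the neutrophil-like level subtracted. In Trp53-deleted ones it was 3, and 5 with separate clustering of each library. The count of list genes past 1.5-fold in Trp53-intact luminal progenitor-like cells was 20, and 31 with the neutrophil-like level subtracted and 33 with a pseudocount of 1. In Trp53-deleted ones it was 25, and 15 with thinned counts and 38 with the neutrophil-like level subtracted. In Trp53-intact fibroblast-like cells it was 11, and 18 with clusters weighted alike, 19 with the neutrophil-like level subtracted and 20 with a pseudocount of 1. In Trp53-deleted ones it was 23, and 36 with a pseudocount of 1, 46 with separate clustering of each library and 51 with the Crabp1 cluster counted as fibroblast-like. The Hsd11b1 log2 ratio there was -2.38 in the last setting and -1.04 with separate clustering of each library. The share of all genes past 1.5-fold was not computed in these other settings, so their counts cannot be set against it. The cause of these shifts was not tested. Trp53-deleted luminal progenitor-like cells had no value with separate clustering of each library, since that cluster then stayed unnamed in the library with ADT. No paired analysis was possible because each group has 1 library, and no replicate could be left out. Depth limits Srd5a2 in all classes, and basal-like cells of the Trp53-deleted library with ADT, of which there were 29.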
